A study of Mus musculus with 6 samples.

Results

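The genes described here belong to the angiotensin system: the precursor Agt, the converting enzyme Ace, the chymases Cma1 and Mcpt4, the peptidases Enpep and Mme, the angiotensin receptors Agtr1a and Agtr2, and the kinin receptor Bdkrb2. They are 9 of the 54532 genes listed, and they were chosen by their place in this pathway with the AdCre and AdGFP values of these samples already known, Ace and Cma1 in the first place for being higher with AdCre. The values of the 9 genes between the groups are therefore given as a description. No p is printed for any of them, and the counts of those that passed a test are set beside all genes with nothing read from them. The samples were 6 RNA-seq libraries of primary cardiomyocyte cultures from neonatal mice 1 to 3 days old that carried a Cre-inducible Rit1 M90I allele. Cells were infected on culture day 3 with adenovirus carrying GFP (AdGFP, genotype Rit1 +/+ in the labels, n = 3) or Cre recombinase (AdCre, genotype Rit1 M90I/+, n = 3), and RNA was taken 6 days after infection. Both groups thus shared the inducible allele and an adenovirus, and AdCre differed from AdGFP in the recombinase as well as in the variant, which cannot be told apart with these samples. Cells were plated at roughly 1 heart a well, and the strain, the sex and the number of wells behind each library are not given in the sources used here.

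In the angiotensin system, renin cuts angiotensinogen (Agt) to angiotensin I, which Ace on the cell surface, or chymases in tissue, convert to angiotensin II. Angiotensin II acts mainly through the type 1 receptor Agtr1a, is trimmed further by Enpep and is degraded by several peptidases, while Ace and Mme also break down bradykinin, the ligand of Bdkrb2. In the heart the system is known for its part in hypertrophic growth and fibrosis, with Ace in endothelium, chymases in mast cells and Agtr1a in fibroblasts, smooth muscle and cardiomyocytes.

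Levels are given as FPKM, a read level divided by exon length and by library size, which allows levels to be set beside each other per length. The values stepped in whole reads, and the totals recovered from those steps were 25280637 to 26545550 reads in AdGFP and 25978097 to 32433218 in AdCre. Cardiomyocyte markers were present in all 6 libraries, with a summed level of 1790 to 2590 FPKM in AdGFP and 972 to 1700 FPKM in AdCre, without overlap, and fibroblast markers summed to 2590 to 4640 and 2270 to 3320 FPKM, so the cultures held non-myocytes in quantity. In bulk RNA, fewer cells of a type and less RNA per cell cannot be told apart. Rit1 itself was at 8.55 ± 0.774 FPKM (SD, n = 3) in AdGFP and 9.19 ± 0.351 in AdCre, with overlapping groups, and gene-level values do not separate its alleles. Same-numbered AdGFP and AdCre samples deviated together, so where a call is counted it is also given with the replicate number as a block.

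**Figure D1:**
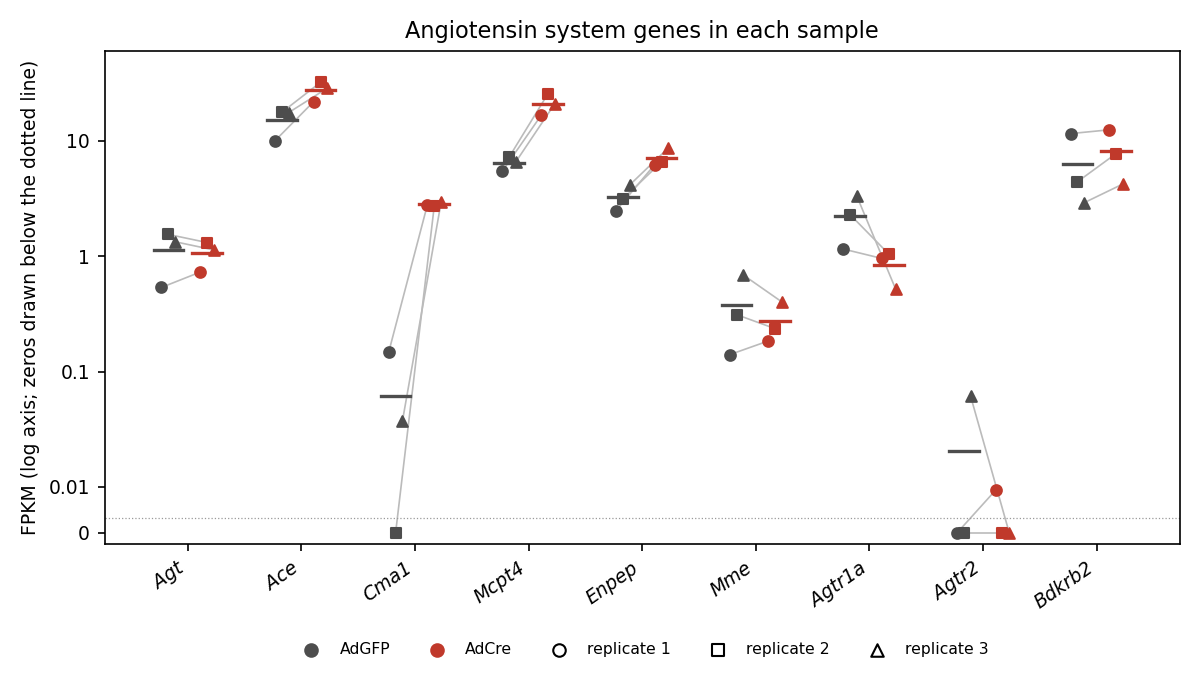
FPKM (log axis, with values of 0 drawn on a marked line at the bottom) of each of the 9 angiotensin system genes in the 3 AdGFP and 3 AdCre samples, each point 1 sample and each bar the group mean. Ace, Cma1, Mcpt4 and Enpep were higher in all 3 AdCre samples than in any AdGFP sample, Agtr1a was lower, and the other 4 genes overlapped.

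The precursor gene, Agt (ENSMUSG00000031980, mm10 chr8:124556534-124569706, minus strand), which encodes angiotensinogen, was listed at 0.535, 1.54 and 1.33 FPKM in AdGFP samples 1, 2 and 3 and at 0.726, 1.31 and 1.13 FPKM in AdCre samples 1, 2 and 3. The lowest value of each group was that of the sample numbered 1, and the AdCre values lay inside the AdGFP range. The means were 1.14 ± 0.531 and 1.05 ± 0.299 FPKM (SD, n = 3), a log2 difference of AdCre minus AdGFP of -0.02 ± 0.42 (SE). These values rested on 25 to 74 reads per sample. Here and in what follows, a log2 difference is taken on log2(FPKM + 0.1), a scale that understates the difference of genes with low values.

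The converting enzyme, Ace (ENSMUSG00000020681, mm10 chr11:105967945-105989964, plus strand), had the highest mean level of the 9 genes in both groups. It was at 10.0, 17.6 and 17.5 FPKM in AdGFP and at 21.8, 32 and 28.5 FPKM in AdCre, from 1310 to 4371 reads. The groups did not overlap, although AdCre sample 1, the lowest of its group, stood only a little above AdGFP samples 2 and 3. The means were 15.1 ± 4.35 and 27.5 ± 5.17 FPKM (SD, n = 3), which is 1.86-fold on the log scale (log2 difference 0.89 ± 0.26 SE), and between same-numbered samples the differences were 1.12, 0.86 and 0.70. AdGFP sample 1 was the lowest of the 6, and without it the log2 difference was 0.62. The gene has an internal start that gives the shorter germ-cell form of the enzyme, and gene-level values do not separate the forms. Exons of another gene on the opposite strand cover 5.58% of its exon bases, and whether counting used the strand is not given in the sources used here.

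Some endothelial markers were higher with AdCre beside Ace. The 10 endothelial markers, none of them at 0, summed to 95 to 147 FPKM in AdGFP and 139 to 206 FPKM in AdCre, with overlap, and their log2 differences ran from -0.06 (Vwf) to 0.60 (Flt1). Eng alone held 46.3 to 50.9% of the sum in each sample. Of these markers 4 (Cdh5, Flt1, Eng and Egfl7) passed the test across all genes (limma, Benjamini-Hochberg adjusted p under 0.05) as higher with the replicate block, against 2.64% of all tested genes, while 0 passed without it (3 at an unadjusted p under 0.05, which 10.2% of all tested genes reached). Per 1000 FPKM of these markers, Ace was at 106, 154 and 119 FPKM in AdGFP and at 157, 206 and 138 FPKM in AdCre, and here the groups overlapped, with AdCre sample 3 below AdGFP sample 2. The part of endothelial RNA in the Ace difference was not tested, and these ratios were chosen after the values were seen.

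Both chymase genes lie on chromosome 14 in a run of 8 protein-coding genes of granule proteases between 55941451 and 56102574 (mm10, 161.1 kb): Cma1, Cma2, Mcpt1, Mcpt9, Mcpt2, Mcpt4, Mcpt8 and Ctsg. Cma1 (ENSMUSG00000022225, chr14:55941451-55944675, minus strand), which encodes a mast cell chymase, was listed at 0.148, 0 and 0.0372 FPKM in AdGFP, which is 4, 0 and 1 reads. In AdCre it was at 2.78, 2.70 and 2.91 FPKM, from 97, 76 and 88 reads. The AdCre values lay within a narrow band, while the AdGFP values sat at or near the level of a few reads. The sum was 5 reads in AdGFP and 261 in AdCre, a ratio, scaled by the library sizes recovered from the FPKM values, of 45.6 with an exact 95% interval of 19.3 to 142 that covers counting error only. The fitted log2 difference of 4.27 ± 0.41 (SE) depends on the value added before taking logs, and was 1.84 with 1 added and 6.06 with 0.01 added. Cma1 passed the filter on low values through its AdCre samples alone. Of its exon words of 50 bases, 5.38% also occur elsewhere in the transcriptome, the most in the pseudogene Gm48934, which was listed at 0 in every sample.

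Mcpt4 (ENSMUSG00000061068, chr14:56059629-56062313, minus strand), which encodes mast cell protease 4, the mouse chymase most like the human enzyme in angiotensin conversion, was well above Cma1 in every sample. It was at 5.44, 7.22 and 6.59 FPKM in AdGFP and at 16.5, 25.4 and 20.8 FPKM in AdCre, from 149 to 728 reads. All AdCre samples were at more than any AdGFP sample by a wide margin. The means were 6.42 ± 0.904 and 20.9 ± 4.48 FPKM (SD, n = 3), 3.19-fold on the log scale (log2 difference 1.68 ± 0.19 SE), with 1.58, 1.80 and 1.64 between same-numbered samples. Of its exon words 5.48% are shared, the most with Cma2 of the same run. Mcpt4 was at 0.41 and 0.377 of the Ace level in AdGFP samples 2 and 3 and at 0.543 in AdGFP sample 1, and at 0.728 to 0.795 of it in AdCre. Per 1000 FPKM of endothelial markers Mcpt4 was at 44.8 to 63 FPKM in AdGFP and 101 to 164 in AdCre, and per 1000 FPKM of macrophage markers at 26.6 to 121 and 67.6 to 204, with overlap on the second scale only.

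The other 6 genes of the run were far lower, with a highest mean of 0.387 FPKM. Together they held 27 reads in AdGFP and 102 in AdCre, against 537 and 2212 for Cma1 and Mcpt4. Mcpt8 had 3, 0 and 1 reads in AdGFP and 14, 6 and 16 in AdCre, Mcpt2 had 9, 3 and 3 against 23, 8 and 23, and Mcpt1 was listed at 0 in every sample. Both Mcpt8 and Mcpt2 were under the filter on low values and were not tested.

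Of the 8 mast cell markers listed, 5 were at or near 0, and Cpa3, Hdc and Kit were detected in every sample. Fcer1a and Mrgprb2 were at 0 in every sample, Ms4a2 was above 0 in AdGFP sample 1 only, at 0.0288 FPKM, and the tryptases Tpsb2 and Tpsab1 were at 0 in AdGFP and at no more than 0.1 FPKM in AdCre. Cpa3, the mast cell carboxypeptidase, was at 0.107 to 0.213 FPKM in AdGFP and 0.119 to 0.268 in AdCre. Hdc, which makes histamine, was at 0.0864 to 0.228 FPKM in AdGFP and at 0.279 to 0.48 in AdCre, without overlap. Kit was the only one of the 8 past the filter on low values, at 0.817 to 2.01 and 0.869 to 2.16 FPKM. The sum of the 8 markers was 1.29 to 2.24 FPKM in AdGFP and 1.6 to 2.86 FPKM in AdCre, with overlap and with Kit holding 54.3 to 89.8% of it, and Mcpt4 alone exceeded it in every sample. The part of mast cells in the chymase differences was not tested.

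**Figure D2:**
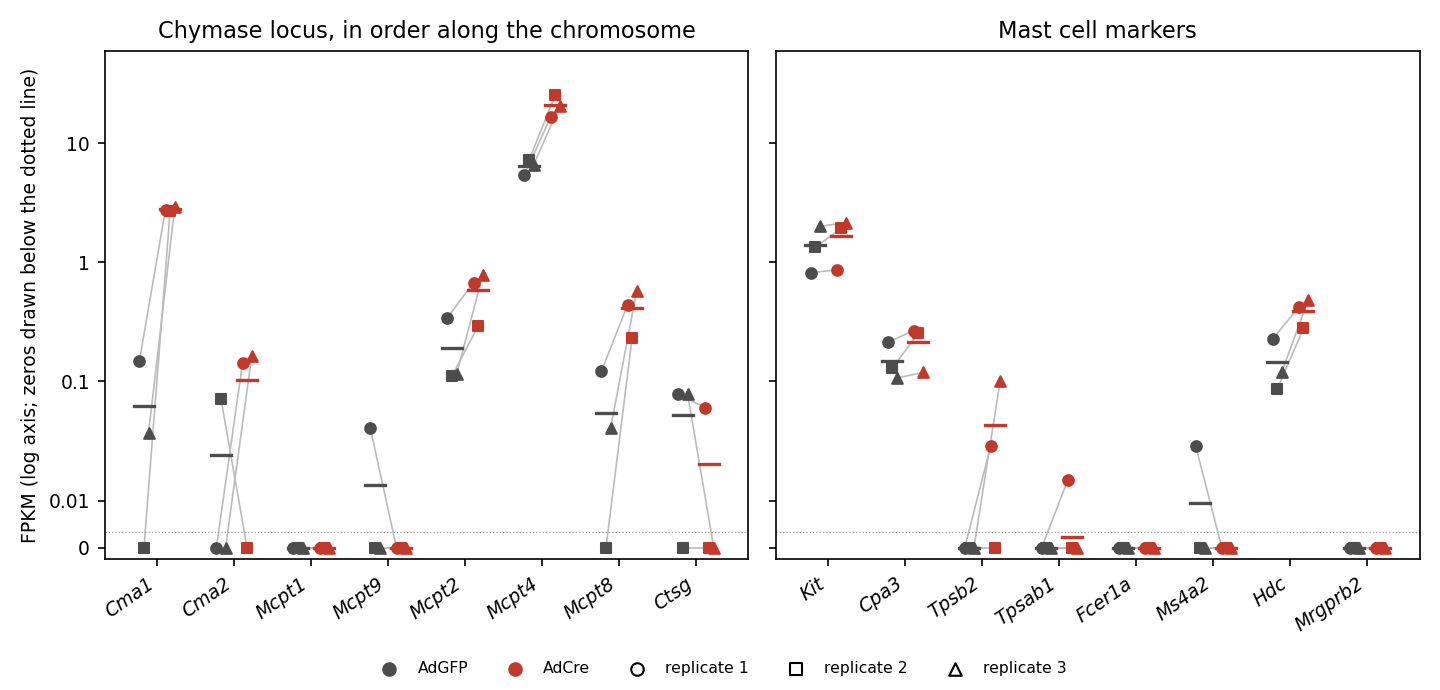
FPKM (log axis, values of 0 on the marked line) of Cma1, Mcpt4 and the 8 mast cell markers in each sample, each point 1 sample. Cma1 and Mcpt4 were separated between AdGFP and AdCre, while Fcer1a and Mrgprb2 were at 0 in all 6 samples and the summed markers overlapped at 1.29 to 2.24 and 1.6 to 2.86 FPKM.

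Among the peptidases that act on angiotensin II and its products, Enpep (ENSMUSG00000028024, mm10 chr3:129269175-129332720, minus strand), the aminopeptidase that trims angiotensin II to angiotensin III, was at 2.48, 3.12 and 4.13 FPKM in AdGFP. In AdCre it was at 6.20, 6.54 and 8.65 FPKM, and the counts behind all 6 values were 289 to 1128 reads. No AdCre sample reached down to the AdGFP range, and in both groups the sample numbered 3 was the highest. The means were 3.24 ± 0.829 and 7.13 ± 1.33 FPKM (SD, n = 3), 2.18-fold (log2 difference 1.13 ± 0.22 SE), with 1.29, 1.05 and 1.05 between same-numbered samples. Mural cell markers, of a cell type that uses Enpep, summed to 825 to 1260 FPKM in AdGFP and 982 to 1180 FPKM in AdCre, of which Acta2 alone held 80.6 to 89% in each sample. Per 1000 FPKM of them Enpep was at 1.97, 3.78 and 4.11 FPKM in AdGFP and 5.27, 6.66 and 7.63 in AdCre, and per 1000 FPKM of endothelial markers at 26.2 to 28.1 and 42.0 to 44.6, so the groups stayed apart on either scale. Its level relative to Ace overlapped between the groups, at 0.177 to 0.248 and 0.204 to 0.303.

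Mme (ENSMUSG00000027820, chr3:63241537-63386030, plus strand), which encodes neprilysin, a membrane peptidase that cuts angiotensins, bradykinin and natriuretic peptides, was low. It was at 0.14, 0.311 and 0.685 FPKM in AdGFP and 0.184, 0.235 and 0.4 FPKM in AdCre, from 40 to 195 reads. In both groups sample 1 was the lowest and sample 3 the highest, and the ranges overlapped. Its mean over all samples, 0.326 FPKM, was under the filter of 0.5, and its log2 difference, outside the tested genes, was -0.23 ± 0.52 (SE).

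Of the receptors, Agtr1a (ENSMUSG00000049115, chr13:30336441-30382867, plus strand), the type 1 angiotensin II receptor, was the only one of the 9 genes lower in all AdCre samples than in any AdGFP sample. It was at 1.15, 2.28 and 3.28 FPKM in AdGFP and at 0.953, 1.04 and 0.518 FPKM in AdCre, from 40 to 225 reads. The groups came close at sample 1, where 1.15 stood beside 0.953, and lay far apart at sample 3. The means were 2.23 ± 1.07 and 0.838 ± 0.28 FPKM (SD, n = 3), or 0.42-fold (log2 difference -1.25 ± 0.42 SE), and the same-numbered differences were -0.24, -1.06 and -2.45. Of its exon words 1.23% are shared, the most with Agtr1b, the second gene for this receptor in mice, which had at most 5 reads in any sample. Of the 8 fibroblast markers 3 passed limma as lower under the block, against 3.51% of all tested genes, but 0 passed without it (0 at an unadjusted p under 0.05), 0 separated the groups, and their sums overlapped. Cardiomyocyte markers differed in the same direction as Agtr1a, with 7 of 8 passing as lower under the block, 0 without it (6 at an unadjusted p under 0.05, limma, against 10.2% of all tested genes), and a median log2 difference of -0.90. In the fibroblast sum, Col1a1 alone held 52.8 to 61.1% in each sample. Per 1000 FPKM of fibroblast markers Agtr1a was at 0.443, 0.649 and 0.706 FPKM in AdGFP and 0.419, 0.343 and 0.156 in AdCre, still without overlap. Per 1000 FPKM of cardiomyocyte markers it was at 0.442, 0.926 and 1.83 and at 0.681, 0.614 and 0.533, and per 1000 FPKM of mural markers at 0.91 to 3.26 and 0.457 to 1.06, and on both scales the groups overlapped. The part of these cell types in the difference was not tested.

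Ace and Agtr1a differed in opposite directions, so their ratio separated the groups further. It was 8.74, 7.74 and 5.34 in AdGFP and 22.9, 30.7 and 55.1 in AdCre. The ratio of Ace to the precursor gene Agt was 18.7, 11.4 and 13.1 in AdGFP and 30.1, 24.4 and 25.3 in AdCre, also without overlap. These are ratios of RNA levels per length, chosen with the values known, and say nothing of the peptides.

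Agtr2 (ENSMUSG00000068122, chrX:21484544-21489164, plus strand), the type 2 angiotensin II receptor, was essentially not detected. It had 5 reads in AdGFP sample 3, at 0.061 FPKM, 1 read in AdCre sample 1, and 0 in the other 4 samples, which gives no fold. Bdkrb2 (ENSMUSG00000021070, chr12:105563226-105595237, plus strand), the constitutive bradykinin receptor, was at 11.5, 4.4 and 2.9 FPKM in AdGFP and at 12.4, 7.72 and 4.21 FPKM in AdCre. The order over the replicate numbers was the same in both groups, with both samples numbered 1 the highest, and the groups overlapped over most of their range. The means were 6.28 ± 4.62 and 8.12 ± 4.13 FPKM (SD, n = 3), a log2 difference of 0.48 ± 0.56 (SE), with 0.11, 0.80 and 0.52 between same-numbered samples.

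In order of mean level, AdGFP held Ace, Mcpt4, Bdkrb2, Enpep, Agtr1a, Agt, Mme, Cma1 and Agtr2. Only Ace and Mcpt4 were apart there, and each later neighbour overlapped the one before it. In AdCre the order was Ace, Mcpt4, Bdkrb2, Enpep, Cma1, Agt, Agtr1a, Mme and Agtr2, with overlap between Ace and Mcpt4, between Bdkrb2 and Enpep and between Agt and Agtr1a, and with the other neighbours apart. Cma1 thus stood after Mme in AdGFP, where the pair overlapped, and above both Agt and Agtr1a in AdCre.

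**Figure D3:**
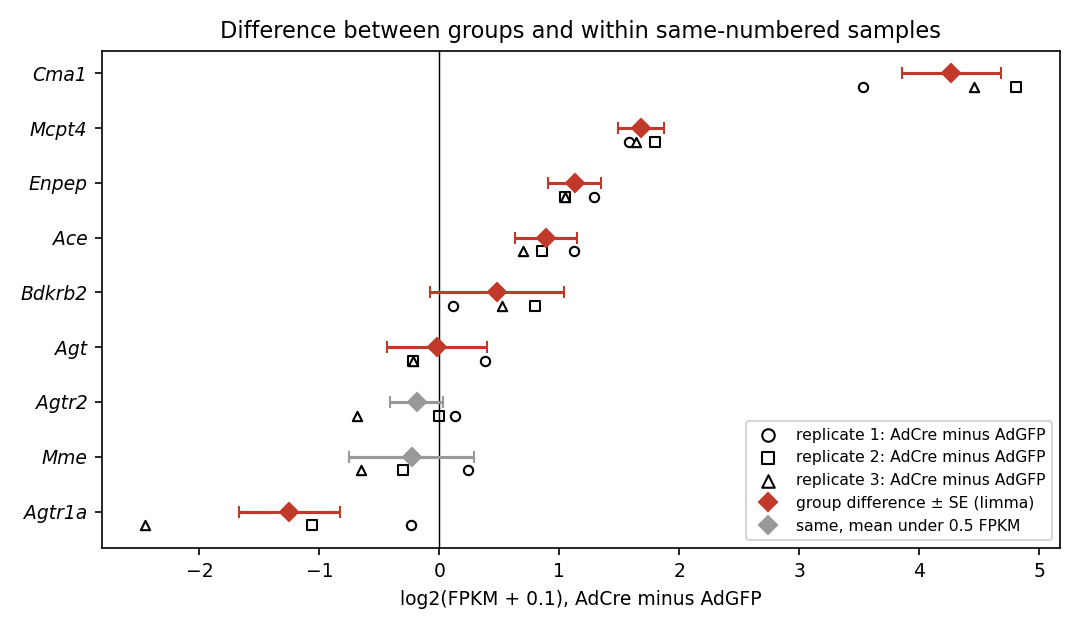
Log2 difference of AdCre minus AdGFP on log2(FPKM + 0.1) for each of the 9 genes, as the mean with its SE and as 3 points for the same-numbered pairs. All 3 pairs lay above 0 for Ace (0.70 to 1.12), Cma1, Mcpt4, Enpep and Bdkrb2 and below 0 for Agtr1a (-0.24 to -2.45). The pairs fell on both sides of 0 for Agt, Mme and Agtr2, the last with at most 5 reads in any sample.

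Set beside all genes, the counts read as follows, and nothing is drawn from them because the genes were chosen on this contrast. The filter on low values, a mean over the 6 samples no lower than 0.5 FPKM, left 13794 genes to test, and 7 of the 9 were among them, with Mme and Agtr2 below it. Of these 7, 4 were higher without overlap, against 7.36% of all tested genes, and 1 was lower without overlap, against 8.02%. At an adjusted p (limma, Benjamini-Hochberg) under 0.05 without a block, 0 of the 7 passed, against 0.00725% of all tested genes, which is 1 gene. At an unadjusted p under 0.05 there were 5 of 7 and 1402 (10.2%) of all, and limma-voom on the recovered reads also passed 0 of the 7. With the replicate number as a block, 4 of the 7 passed, all higher, against 6.15% of all, made up of 2.64% higher and 3.51% lower. Cma1, which passed the filter through its AdCre samples alone, is among the 7 and among those counted as higher. After rescaling to TPM the block passed 538 genes as higher and 337 as lower, in place of 364 and 484. The block calls depended on the third pair and on the variance trend: leaving out the samples numbered 3 left 0 of the 7 and 1 gene in all, and leaving out the trend left 0 and 0. The median log2 difference of the 7 was 0.89 and that of all tested genes was -0.00.

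The promoters of the 4 higher genes are printed because these genes differed in the same direction. They were read from RefSeq for GRCm38.p6, 250 bases before to 50 after the start, 5′ to 3′ on the gene's strand, and of the 9 genes 8 were in that table. Capitals mark matches to the GATA motif searched, GATAAG on either strand, which 7.44% of the 32851 promoters in the table hold. The Ace promoter is that of the first start (chr11:105967698-105967997, plus strand), and the others lie at chr14:55944626-55944925 (Cma1), chr14:56062261-56062560 (Mcpt4) and chr3:129332700-129332999 (Enpep), all on the minus strand.
Ace: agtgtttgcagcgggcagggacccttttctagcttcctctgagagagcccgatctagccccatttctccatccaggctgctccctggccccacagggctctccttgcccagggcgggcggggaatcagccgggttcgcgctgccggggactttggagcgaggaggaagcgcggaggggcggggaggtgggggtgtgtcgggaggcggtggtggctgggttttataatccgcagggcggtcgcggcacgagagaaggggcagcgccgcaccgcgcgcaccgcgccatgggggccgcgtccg
Cma1: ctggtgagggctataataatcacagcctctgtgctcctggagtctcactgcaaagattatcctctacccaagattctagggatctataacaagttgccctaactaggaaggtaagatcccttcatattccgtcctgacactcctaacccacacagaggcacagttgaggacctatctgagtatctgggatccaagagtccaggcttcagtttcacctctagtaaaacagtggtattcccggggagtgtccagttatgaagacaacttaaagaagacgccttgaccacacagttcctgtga
Mcpt4: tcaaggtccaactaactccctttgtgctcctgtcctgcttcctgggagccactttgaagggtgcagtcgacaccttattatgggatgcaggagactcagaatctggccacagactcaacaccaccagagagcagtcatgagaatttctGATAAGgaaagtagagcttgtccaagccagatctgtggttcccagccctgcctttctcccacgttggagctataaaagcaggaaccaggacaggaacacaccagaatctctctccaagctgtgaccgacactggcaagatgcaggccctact
Enpep: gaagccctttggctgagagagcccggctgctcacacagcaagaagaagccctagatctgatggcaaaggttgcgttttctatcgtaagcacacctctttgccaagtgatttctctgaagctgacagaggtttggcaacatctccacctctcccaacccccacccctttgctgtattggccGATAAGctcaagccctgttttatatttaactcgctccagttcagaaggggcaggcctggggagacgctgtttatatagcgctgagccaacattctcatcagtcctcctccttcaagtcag
GATAAG was found once in Mcpt4, 102 bases before the start, and once in Enpep, 70 bases before it, and not in Ace or Cma1. The AP-1 motif TGANTCA (7.81% of promoters), the CRE TGACGTCA (1.79%) and the ETS motif CCGGAAG (8.86%) were in none of these 4 windows. Among the other genes, the AP-1 motif was found at 1 site of Mme, which lies in the overlapping windows of its starts 2 and 3, and no motif was found in Agt, Agtr2 or Bdkrb2. A match is a description of the letters in a window and not a binding site, and a missing match says nothing of the factor.

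The other genes of the pathway, from a list chosen with earlier results of these data known, numbered 47, of which 25 passed the filter on low values. Without a block 0 of the 25 passed limma at an adjusted p under 0.05 (6 at an unadjusted p under 0.05, against 10.2% of all tested genes, and 0 with limma-voom), and 4 passed with the replicate block, against 6.15% of all tested genes. Leaving out the pair numbered 1, 2 or 3 gave 1 (as lower), 0 and 0 calls, and leaving out the variance trend left 0. Of the 25, 7 were higher without overlap (7.36% of all tested genes) and 1 was lower (8.02%), and their median log2 difference was 0.21, beside -0.00 for all tested genes. Mmel1, which passed the filter through its AdCre samples alone, is counted in the 25, in the 6 at an unadjusted p under 0.05 and in the 7. Klk1, Mcpt1, Mrgprd and Cyp11b2 were listed at 0 in every sample.

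On the precursor side, the renin gene Ren1 had 2 reads in AdCre sample 1 and 0 in the other 5 samples, and the kininogen genes were low. Atp6ap2, the (pro)renin receptor and a part of the vacuolar proton pump, was at 28.3, 26.7 and 25.2 FPKM in AdGFP and 38.5, 34.4 and 35 FPKM in AdCre. The AdCre samples were all higher than the AdGFP samples, with means of 26.7 ± 1.57 and 36.0 ± 2.17 FPKM (SD, n = 3) and a log2 difference of 0.43 ± 0.11 (SE). Its adjusted p (limma) was 0.299 without and 0.0336 with the block, and over the alternatives with the block it ranged from 0.00587 to 0.145.

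Among peptidases that process angiotensins and kinins, Anpep, aminopeptidase N, and Ece1, the endothelin converting enzyme, passed as higher with the block only. Anpep was at 5.38 ± 1.77 FPKM in AdGFP and 7.94 ± 1.95 in AdCre (SD, n = 3), a log2 difference of 0.58 ± 0.30 (SE), with a limma adjusted p of 0.585 without and 0.0488 with the block. Ece1 was at 29.0 ± 6.5 and 39.5 ± 10.0 FPKM, a log2 difference of 0.44 ± 0.23, with an adjusted p (limma) of 0.605 and 0.0354. Ctsa, the lysosomal protective protein cathepsin A, was the one gene that passed as lower with the block, at 107 ± 15 and 81.5 ± 16.1 FPKM and a log2 difference of -0.40 ± 0.18, with an adjusted p (limma) of 0.519 and 0.0418. Exons on the opposite strand cover 17.4% of its exon bases, and it did not pass after rescaling to TPM. With the block, the adjusted p (limma) ranged over the alternatives from 0.00977 to 0.175 for Anpep, from 0.00468 to 0.154 for Ece1 and from 0.0205 to 0.162 for Ctsa. Mmel1, a relative of neprilysin that passed the filter on low values through its AdCre samples alone, was at 0.292 ± 0.0914 FPKM in AdGFP and 0.912 ± 0.109 in AdCre. Its log2 difference was 1.39 ± 0.34 and ran from 0.57 to 1.72 over the alternatives without the block. Since the filter chose Mmel1 by the group where it is high, its test is not given. Other peptidases were higher in all AdCre samples without passing limma with or without the block, namely Prcp (6.26 to 8.12 FPKM in the means, log2 difference 0.37), Rnpep (5.22 to 6.69 FPKM, 0.35) and Nln (3.07 to 3.50 FPKM, 0.18). Prep, prolyl endopeptidase, was lower in all AdCre samples, at 21.6 ± 5.68 and 14.7 ± 1.79 FPKM and a log2 difference of -0.52 ± 0.21, with a limma adjusted p of 0.463 without and 0.0533 with the block. With limma-voom and the block, which passed 12.6% of all genes it tested, Prcp, Rnpep and Prep did pass. Over the alternatives with the block the limma adjusted p of Prep ranged from 0.0138 to 0.147.

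Mas1, a G protein-coupled receptor of the pathway, had 2, 2 and 8 reads in AdGFP and 0 in every AdCre sample, too few for a fold. Agtrap, which promotes internalisation of the type 1 receptor, had a log2 difference of -0.26, and Mtus1, an interaction partner of the type 2 receptor, one of -0.53 ± 0.22 (SE) with a limma adjusted p of 0.484 without and 0.0696 with the block (0.0233 to 0.212 over the alternatives with the block, the lowest with limma-voom). Of the 9 tested genes that carry the signal from the receptors, 0 passed limma with or without the block (1 at an unadjusted p under 0.05 without it, against 10.2% of all), while limma-voom with the block passed 3 (Gnaq, Gna11 and Grk2), against 12.6% of all genes in that fit. Gna11, a G protein subunit coupled to the type 1 receptor, and Grk2, a receptor kinase, were higher without overlap. Gna11 was at 30.6 ± 1.48 and 38.3 ± 7.65 FPKM (SD, n = 3) and Grk2 at 15.3 to 16.7 FPKM in AdGFP and 18.3 to 22.3 in AdCre, each with a log2 difference of 0.31.

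**Figure D4:**
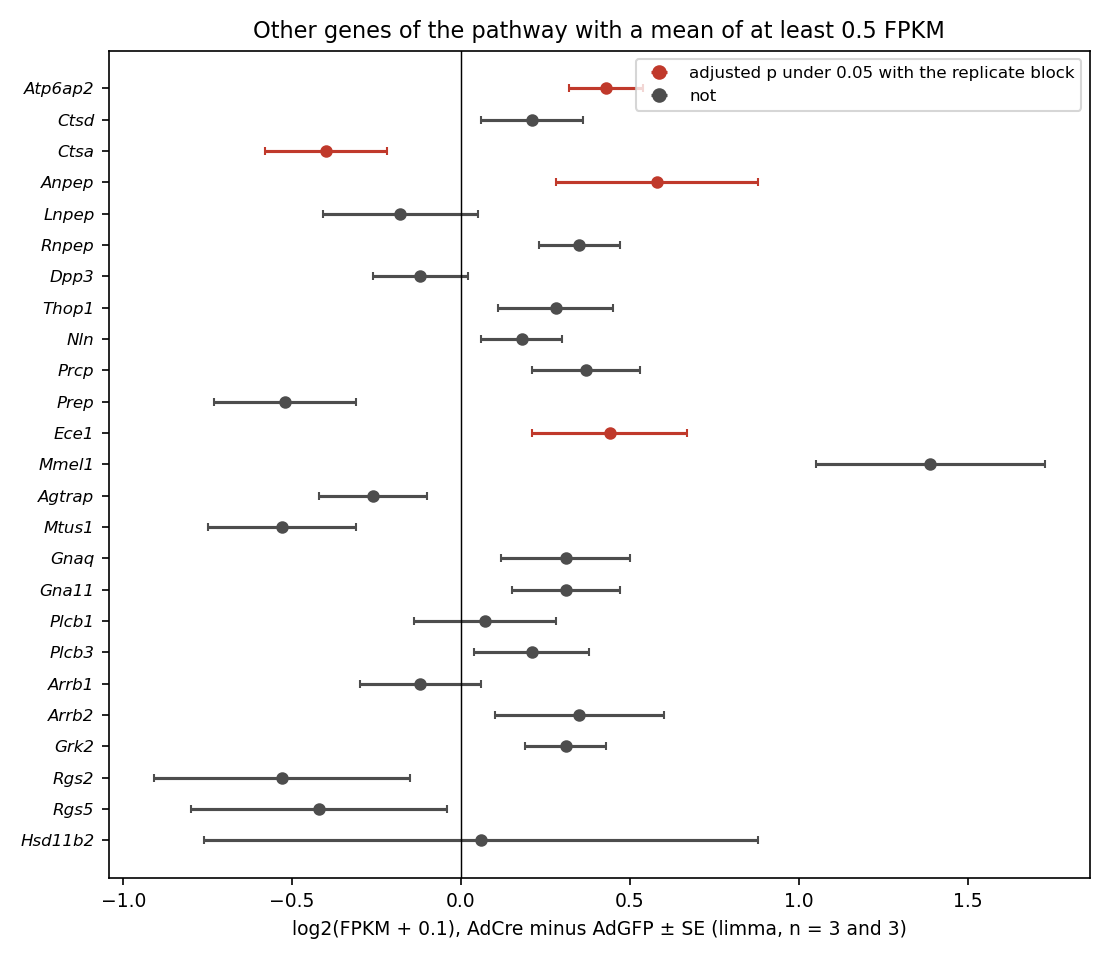
Log2 difference of AdCre minus AdGFP on log2(FPKM + 0.1), with its SE, for the 25 other angiotensin pathway genes past the filter on low values, with genes that passed the test under the replicate block marked. Most lay within 0.5 of 0, Mmel1, whose AdGFP mean was under the filter, was the highest at 1.39, and the median was 0.21.

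Over the 6 samples the 4 higher genes correlated with each other, and most other pairs of members did so less, which is given as a description since the points share 2 groups and 3 replicate numbers. The 4 were grouped for being higher in every AdCre sample, and that choice itself favours a positive r between them. On the log2 scale Pearson's r was 0.92 between Mcpt4 and Ace, 0.91 between Enpep and Ace, 0.92 between Enpep and Mcpt4 and 0.93 between Mcpt4 and Cma1. It was 0.72 between Ace and Cma1, -0.84 between Agtr1a and Cma1 and -0.79 between Bdkrb2 and Agt. Agt had r of -0.17 with Cma1, 0.19 with Mcpt4 and 0.25 with Enpep, and Bdkrb2 had r of -0.21 with Ace, 0.16 with Mcpt4 and -0.09 with Enpep. Of 12428 protein-coding genes compared over the 6 samples, the 3 with the pattern most like Ace were Epas1 (r = 0.9924), Cd9 (r = 0.985) and Ahnak2 (r = 0.9812), and 210 genes (1.69%) had r above 0.9. Epas1, a hypoxia-inducible transcription factor abundant in endothelium, was at 9.75, 15.9 and 17.3 FPKM in AdGFP and 19.1, 25.7 and 23.5 in AdCre, so like Ace its lowest value was in AdGFP sample 1. For Cma1 they were Msx1 (r = 0.9921), Mphosph9 (r = 0.9907) and Fkbp5 (r = 0.9891), with 192 genes (1.54%) above 0.9. The folds of Msx1, Mphosph9 and Fkbp5 were 1.47, 1.33 and 1.2, so a high r here does not mean a difference of like size. Msx1, a homeobox transcription factor, was at 1.08, 0.929 and 1.03 FPKM in AdGFP and at 1.48, 1.53 and 1.6 in AdCre.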

How the data were processed

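RNA-seq of 3 AdGFP and 3 AdCre samples was analysed from the FPKM table deposited by the authors, 1 value per gene and sample. The submitters' processing notes name fastp, STAR 2.5, HTSeq 0.6.1 and mm10. The annotation, the strand setting and the scaling total of the FPKM values are not given in the sources used here. Gene IDs were matched to GENCODE M21 (54495 of 54532).

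Reads were recovered from the FPKM steps and exon length, and 97.52 to 97.65% of low values came out whole within 0.02 of a read. The FPKM denominators recovered differed from the read totals, so the authors' library sizes were not plain totals. One read was worth 0.0286 to 0.0372 FPKM in Cma1. Intervals and low counts cover counting error only. Tests used limma 3.58.1 (R 4.3.3) on log2(FPKM + 0.1) over genes whose mean was 0.5 FPKM or more, with a variance trend and Benjamini-Hochberg adjustment at 0.05, without a block as the main design, and the script was tested on simulated data. Labels call the samples biological replicates without saying whether cultures were separate, so p-values measure only the spread between these samples. Same-numbered AdGFP and AdCre samples had correlated deviations from their group means (r = 0.568, 0.268 and 0.506, each above the limit of 0.1), so the block was accepted as a pairing from the values. Summaries used Python 3.11.15 with numpy, pandas and scipy.

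The members and all gene lists were chosen with earlier results of these data known. The genes named were every member, Rit1, the other pathway genes that passed the test with or without the block, did not overlap between groups (up to 10 by size) or were at 0 throughout, and, for Ace and Cma1, the 3 protein-coding genes with the highest Pearson's r. Other pathway genes named (Mtus1, Agtrap, Agtr1b, Ren1, Gnaq, and Mcpt2, Cma2, Mcpt9 and Ctsg of the chymase run) were chosen by role, by place or after their values were seen. Alternatives tried were other added values, other filters, TPM, median centring, no trend, limma-voom on recovered reads, the block, and each sample or pair left out.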

Additional observations from a re-analysis of the deposited data

How the results depend on the processing

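Without the block, 1 of all tested genes, 0 members and 0 other pathway genes passed. With 1 added before logs 3 genes and 1 member passed, without a variance trend 4 genes and 1 member, with no filter 0 genes, with limma-voom 0 genes, and with 1 sample left out 0 to 2 genes and 0 to 1 members (1 without AdGFP replicate 1). The member that passed without a trend was Cma1, which entered the test through its AdCre samples alone, so nothing is read from that call. The replicate block, a pairing taken from the values, passed 848 genes (6.15% of those tested), 4 of 7 members and 4 of 25 other pathway genes. With the block and no filter, these were 17 of 28445 genes, 1 of 9 members and 0 of 43 other pathway genes, and without a trend 0, 0 and 0. With the block and limma-voom 1739 genes passed (12.6% of all in that fit, 1005 higher and 734 lower). Beside them stood 5 of 7 members, 1 of them as lower, and 12 of 25 other pathway genes. Nothing is read from these counts, and the 12 include Mmel1, which passed the filter through its AdCre samples alone. Without pair 1, 2 and 3, 811, 152 and 1 genes passed, of 13789, 13786 and 13794 tested. Of 7 members 6, 3 and 0 passed, and of 26, 25 and 24 other pathway genes 1, 0 and 0 did. Rescaling to TPM before adding 0.1 gave 875 genes, 538 higher and 337 lower, against 364 and 484. The causes were not tested.

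Over 15 alternatives the log2 difference kept its sign for Ace (0.62 to 1.05), Cma1 (1.84 to 6.06), Mcpt4 (1.52 to 1.83), Enpep (0.94 to 1.31), Agtr1a (-1.65 to -0.77) and Bdkrb2 (0.05 without AdGFP replicate 3 to 1.03 without AdGFP replicate 1). Agt (-0.44 to 0.24), Mme and Agtr2 did not keep it in all 15. The filters, the trend and the block cannot change the log2 difference, so among the 15 only the other settings could move it. Reads of 0 to 5 for Cma1 in AdGFP and for Agtr2, and of 0 to 8 for Mas1, limit what depth can show.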
